A study of Mus musculus with 18 samples.

Results

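On a mouse bead array for the whole genome, 8144 probes gave a strong signal in all 3 lines of epiblast stem cells from fertilized embryos, and 72 of them gave a much weaker one in at least 1 of 3 lines from nuclear transfer embryos. The 72 lost probes were chosen by their measured levels. A probe was taken when its lowest mean among the FT lines was at least 9 on the log2 intensity scale, and when its mean in NT.1, NT.2 or NT-LE lay at least 1.0 below that lowest FT mean. The 72 are 0.884% of the 8144 probes that met the first condition. Every difference between NT and FT lines given for these probes is therefore a description of how they were selected and carries no test. Of the 72 probes, 63 have a gene in the platform annotation, for 56 genes in all, and 9 are given by their array identifier.

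The study set mouse epiblast stem cell lines, which are pluripotent cells grown from the epiblast of the implanted embryo, side by side by the origin of the embryo. The NT lines, called NT.1, NT.2 and NT-LE, descend from cloned embryos, made by somatic cell nuclear transfer with the nucleus of a body cell in place of that of the egg. The FT lines, called FT.1, FT.2 and FT.3, descend from fertilized ones. All embryos were of strain B6D2 and at the pre-streak to early-streak stage. The embryo behind NT-LE is labelled as having a large extra-embryonic ectoderm, and the embryos of the other 5 lines as normal. All lines grew on serum-coated dishes in a defined medium to which activin A and basic FGF were added, and the labels do not name the donor cells of the nuclear transfers. Each line had 3 biological repeats with 1 array each, so repeats speak for a line, and 3 lines stand for each origin. Mean intensity ran between 636 and 1142 per array. All 12 epiblast stem cell markers on the array, among them Pou5f1, Fgf5 and Otx2, were above background on every array, and none of 4 cumulus and granulosa markers was above background on all 3 arrays of any line. FT.3 replicate 1 and NT-LE replicate 2 stand apart from the repeats of their lines. RNA came from whole cultures, so fewer cells that express a gene and less of its RNA per cell cannot be told apart.

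Genomic imprinting leaves some mammalian genes expressed from only 1 parental chromosome. The choice is set by DNA methylation laid down in egg or sperm and kept through the divisions of the early embryo. Many of these genes act in growth, placenta and brain, and their marks are known to be lost or gained in some cloned embryos and cultured stem cells. Of the lost probes, 12 belong to 7 imprinted genes, and all 7 are known to be expressed from the paternal copy. Snurf, which shares a transcript with the splicing factor gene Snrpn, Ndn, which encodes the growth suppressor necdin, and Mkrn3, which encodes a ubiquitin ligase, lie in 1 cluster on chromosome 7. Peg3 encodes a zinc finger protein, Mest an enzyme of the hydrolase fold family, Impact an inhibitor of the kinase GCN2, and Zdbf2 a zinc finger protein.

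Promoters of 6 of the 7 imprinted genes are shown, 1 start for each, because their probes were low together in NT.2 and NT-LE. The probe of the remaining gene was low in both lines too, but its promoter is not reported here. The sequences are the sense strand of RefSeq on build GRCm38.p6, from 250 bases before to 50 after the annotated start. Each CpG, the dinucleotide that carries the methylation mark, is in capitals. Snurf lies at chr7:60005150-60005449 on the minus strand, Ndn at chr7:62348027-62348326 on the plus strand, Mkrn3 at chr7:62420104-62420403 on the minus strand, Peg3 at chr7:6730370-6730669 on the minus strand, Mest at chr6:30737800-30738099 on the plus strand and Zdbf2 at chr1:63200108-63200407 on the plus strand.
Snurf: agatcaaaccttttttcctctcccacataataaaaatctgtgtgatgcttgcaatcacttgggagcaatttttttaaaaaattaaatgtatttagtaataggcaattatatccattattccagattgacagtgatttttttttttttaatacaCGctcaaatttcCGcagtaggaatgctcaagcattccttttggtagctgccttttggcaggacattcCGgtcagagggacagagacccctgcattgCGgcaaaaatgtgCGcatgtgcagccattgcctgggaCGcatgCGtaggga
Ndn: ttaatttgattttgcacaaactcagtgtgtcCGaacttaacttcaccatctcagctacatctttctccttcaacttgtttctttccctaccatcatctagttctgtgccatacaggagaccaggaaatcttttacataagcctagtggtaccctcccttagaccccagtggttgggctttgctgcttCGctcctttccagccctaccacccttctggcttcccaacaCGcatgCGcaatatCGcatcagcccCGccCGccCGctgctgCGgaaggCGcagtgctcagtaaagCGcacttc
Mkrn3: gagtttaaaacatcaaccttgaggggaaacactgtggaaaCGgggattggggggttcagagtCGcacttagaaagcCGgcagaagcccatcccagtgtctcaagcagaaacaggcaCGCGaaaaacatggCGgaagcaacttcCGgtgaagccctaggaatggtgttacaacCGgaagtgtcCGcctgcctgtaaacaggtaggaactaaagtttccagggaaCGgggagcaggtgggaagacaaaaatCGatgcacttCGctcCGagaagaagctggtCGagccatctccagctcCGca
Peg3: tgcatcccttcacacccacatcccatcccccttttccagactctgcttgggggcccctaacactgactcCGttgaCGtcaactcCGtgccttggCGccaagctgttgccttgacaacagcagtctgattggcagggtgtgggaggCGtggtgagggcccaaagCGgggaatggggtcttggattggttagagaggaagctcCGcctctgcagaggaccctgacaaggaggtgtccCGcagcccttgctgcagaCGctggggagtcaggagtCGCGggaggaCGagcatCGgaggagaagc
Mest: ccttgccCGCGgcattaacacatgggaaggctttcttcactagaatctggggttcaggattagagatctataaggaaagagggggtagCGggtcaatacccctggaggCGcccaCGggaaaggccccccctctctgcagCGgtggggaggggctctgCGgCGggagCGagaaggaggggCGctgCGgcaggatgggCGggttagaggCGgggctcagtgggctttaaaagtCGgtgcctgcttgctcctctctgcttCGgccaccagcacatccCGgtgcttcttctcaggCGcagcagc
Zdbf2: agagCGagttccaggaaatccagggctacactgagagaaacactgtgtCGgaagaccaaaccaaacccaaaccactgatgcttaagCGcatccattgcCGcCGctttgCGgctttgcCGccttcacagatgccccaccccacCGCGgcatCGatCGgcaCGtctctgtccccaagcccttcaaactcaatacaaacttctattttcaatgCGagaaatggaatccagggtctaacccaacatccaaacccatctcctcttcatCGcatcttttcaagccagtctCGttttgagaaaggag
The windows hold 7 CpG in Snurf, 11 in Ndn, 15 in Mkrn3, 13 in Peg3, 17 in Mest and 15 in Zdbf2. Over 32851 promoter windows of this length in the set examined, the median was 7 CpG and the quartiles were 3 and 20. The 6 windows shown lie within the quartiles. The hexamer TGCCGC, which with a methylated CpG is the site read by the imprint-protecting factor ZFP57, was searched on both strands. It occurred 3 times in the Zdbf2 window, 2 times in that of Mest and 1 time in that of Snurf and in none of the other 3 windows, against at least 1 time in 11.6% of all windows. A match is a description of the letters only, and methylation was not measured here. These counts hold for the starts shown. A further start of Zdbf2 at chr1:63273019-63273318 on the plus strand has 38 CpG, above the upper quartile, and 0 hexamers. Further starts of Mest on the plus strand have 8 CpG and 0 hexamers at chr6:30733256-30733555, and 17 CpG and 2 hexamers at chr6:30737803-30738102. In all, 41 of the 56 genes had a promoter in the set examined.

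The 72 probes were spread unevenly over the 3 NT lines. By the rule, 56 were lost in NT.2 (77.8%), 35 in NT-LE (48.6%) and 7 in NT.1 (9.72%). Among these, 34 were lost in NT.2 alone, 17 in both NT.2 and NT-LE, 14 in NT-LE alone, 3 in all NT lines, 2 in NT.1 and NT.2, 1 in NT.1 and NT-LE, and 1 in NT.1 alone. NT.2 and NT-LE shared 20, which is 35.7% of those lost in NT.2 and 57.1% of those lost in NT-LE. Outside the imprinted genes they shared 8, or 18.2% of 44 and 34.8% of 23. The same rule turned round, with NT lines as the bright ones, gave 17 probes lost in at least 1 FT line, 9 of them in FT.1, 9 in FT.2 and 3 in FT.3, with 0 in all FT lines. Of those 17 probes, 3 belong to Xist, the RNA of the inactive X chromosome.

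Drops were often far larger than the rule asked. Over the 72 probes the median drop was 2.06, taken as the lowest FT mean minus the lowest NT line mean. It was at least 2 for 36 probes and at least 4 for 9, while 24 lay under 1.5. The probes just inside the limit were Washc3 with a drop of 1.02 and Thg1l with 1.08, and those just outside were Rgs16 with 0.986 and Ptn with 0.980. Without the line FT.3 the rule would take 148 probes, 99 of them in NT-LE, and without the arrays of replicate 1 it would take 154, with 113 in NT-LE, so the number of losses in NT-LE depends on FT.3 and on that repeat.

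For 71 of the 72 probes, all 3 arrays of each NT line that lost the probe lay below all 9 FT arrays. The share of the 8144 bright probes with this pattern was 2.47% for NT.1, 8.14% for NT.2 and 8.62% for NT-LE, but since the rule used the same arrays, nothing is read from the difference. The exception was Uba6, an activating enzyme for ubiquitin, where NT.2 had 8.08, 9.45 and 8.43 and FT.3 replicate 2 had 8.73. All 72 probes were above background on 9 of 9 FT arrays. Among the lost probes, 19 of 56 in NT.2, 14 of 35 in NT-LE and 1 of 7 in NT.1 were above background on no array of that line. A background level gives only a bound, so folds for these probes are written as at least.

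The 11 probes of 6 imprinted genes lost in both NT.2 and NT-LE behaved alike. None was above background on any array of either line, whose 3-array means were 6.39 to 6.88 in NT.2 and 6.45 to 6.98 in NT-LE, whatever the FT level. NT.1 stayed between 0.21 below and 0.71 above the FT mean for all 11. Snurf had the brightest of these probes in the FT lines, which gives it the highest bound. Its probe ILMN_1247894 read 14.32, 14.43 and 14.32 in NT.1, 6.40, 6.43 and 6.34 in NT.2 and 6.53, 6.39 and 6.44 in NT-LE, against 14.24, 14.38 and 14.36 in FT.1, 14.14, 14.09 and 14.20 in FT.2 and 14.09, 14.23 and 14.32 in FT.3. NT.2 and NT-LE were thus near the floor on all 6 arrays while NT.1 overlapped the FT lines. Its level was at least 126-fold lower in NT.2 and at least 125-fold lower in NT-LE. The other Snurf probes, ILMN_2741277 and ILMN_2748091, were at least 79.4-fold and 13.3-fold lower in NT.2 and at least 78.8-fold and 13.3-fold lower in NT-LE.

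Ndn, in the same cluster as Snurf, read 11.74, 12.05 and 12.00 in NT.1, 6.74, 6.97 and 6.85 in NT.2 and 6.66, 6.81 and 6.85 in NT-LE, against 12.05, 12.16 and 12.13 in FT.1, 12.26, 12.20 and 12.27 in FT.2 and 12.35, 11.96 and 11.88 in FT.3. It was at least 29.7-fold lower in NT.2 and at least 29.5-fold lower in NT-LE. Mkrn3, the dimmest of the 3 genes of the cluster, averaged 9.06 ± 0.213 for NT.1, 6.70 ± 0.128 for NT.2 and 6.71 ± 0.0512 for NT-LE, against 9.29 ± 0.153 for FT.1, 9.21 ± 0.0409 for FT.2 and 9.24 ± 0.199 for FT.3 (SD, n = 3 arrays each). Its bound was correspondingly smaller, at least 3.98-fold lower in NT.2 and 3.96-fold in NT-LE.

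Peg3 and Mest lie outside that cluster, on the proximal part of chromosome 7 and on chromosome 6, and showed the same pattern. Peg3 probe ILMN_1245246 read 12.45, 12.20 and 12.64 in NT.1, 6.93, 6.84 and 6.67 in NT.2 and 6.81, 6.83 and 6.98 in NT-LE, against 12.30, 12.15 and 12.17 in FT.1, 11.99, 12.10 and 11.80 in FT.2 and 12.27, 12.38 and 12.09 in FT.3. Its level was at least 29.6-fold lower in NT.2 and at least 29.4-fold lower in NT-LE. Mest had 3 lost probes, and the brightest, ILMN_2846904, read 12.29, 12.56 and 12.42 in NT.1, 6.48, 6.36 and 6.66 in NT.2 and 6.60, 6.45 and 6.68 in NT-LE, against 12.02, 12.17 and 11.98 in FT.1, 12.11, 12.22 and 12.43 in FT.2 and 11.79, 12.08 and 11.46 in FT.3. It was at least 27.5-fold lower in NT.2 and at least 27.3-fold lower in NT-LE. The lost probes of both genes were thus at background in NT.2 and NT-LE, as were those of Snurf, Ndn and Mkrn3, and bright in NT.1.

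Impact, on chromosome 18, differed from the other imprinted genes in the FT lines themselves. Its probe read 12.05, 11.73 and 11.76 in NT.1, 6.90, 6.77 and 6.99 in NT.2 and 6.73, 6.89 and 6.77 in NT-LE, against 10.27, 10.002 and 9.98 in FT.1, 12.60, 12.56 and 12.53 in FT.2 and 12.33, 12.06 and 12.06 in FT.3. FT.1 lay below the other FT lines and below NT.1 without overlap, and NT.2 and NT-LE lay below all of them. Against the FT mean its level was at least 20.4-fold lower in NT.2 and at least 20.2-fold lower in NT-LE.

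Zdbf2 was the only imprinted gene lost in all 3 NT lines. It read 7.13, 6.88 and 6.89 in NT.1, 6.91, 6.93 and 6.98 in NT.2 and 7.41, 7.43 and 7.61 in NT-LE, against 10.02, 9.9997 and 9.92 in FT.1, 10.43, 10.20 and 10.27 in FT.2 and 10.02, 10.38 and 10.31 in FT.3. NT.1, which kept the other 6 genes, was here as low as NT.2, and only NT-LE was above background. Levels were at least 7.67-fold lower in NT.1, at least 7.58-fold lower in NT.2 and 6.47-fold lower in NT-LE.

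The wider list of imprinted genes showed which members were reached. Of its 64 genes, 56 have a probe on the array, and 29 probes of 19 genes met the brightness condition. The 12 lost probes are 41.4% of those 29, against 0.884% of all bright probes. By the parental copy a gene is known to use, 12 of 13 bright probes of paternally expressed genes were lost. None was lost among 10 of maternally expressed genes or 6 of genes not assigned to a copy, which is near the share over all bright probes. Counted by gene, it was 7 of 8 paternal, 0 of 7 maternal and 0 of 4 not assigned. The copies were assigned from general knowledge after the values had been seen, and which copy these cells use was not measured. The 1 bright paternal probe outside the lost set is that of the growth factor gene Igf2. It averaged 11.86 ± 0.074 for NT.1, 12.04 ± 0.49 for NT.2 and 12.63 ± 0.032 for NT-LE, against 12.44 ± 0.057 for FT.1, 12.46 ± 0.18 for FT.2 and 12.46 ± 0.43 for FT.3 (SD, n = 3 arrays each).

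The 53 detected probes of the list that were not lost, from 32 genes, were compared by limma. The rule had removed the bright probes that fell by 1.0 or more, all of them of paternally expressed genes, so counts of lower probes leave these out and nothing is read from the balance of lower and higher. Each NT line was set against the mean of the FT lines in a test added after the data had been seen. Its p-values measure the spread between repeats of these lines only. Lower at an adjusted p under 0.05 were 5 for NT.1, 8 for NT.2 and 9 for NT-LE, beside 2.84%, 9.19% and 11.3% of all 17933 probes tested. Higher were 8 for NT.1, 18 for NT.2 and 16 for NT-LE, beside 2.93%, 8.87% and 14.8% of all probes tested. When arrays were scaled by their medians the counts were 2 lower and 13 higher for NT.1, 6 and 25 for NT.2, and 5 and 28 for NT-LE, but that scaling moved the median of all probes tested to 0.12, 0.20 and 0.24 above the FT mean in the same lines. Those higher include 4 Xist probes in each line, and Xist was also high in FT.3. When the 6 line means were fitted, so that the FT lines themselves gave the spread, limma called 0 in any line and direction. At an unadjusted p under 0.05 that fit had 3, 7 and 4 lower and 2, 12 and 10 higher for NT.1, NT.2 and NT-LE. Without NT.1 replicate 1 the lower count in NT.1 was 3, without NT.1 replicate 2 the higher count in NT.1 was 4, and without NT.2 replicate 3 the lower count in NT.2 was 5.

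Among 28 such probes of 18 genes assigned to the maternal copy, 10 were higher and 2 lower in NT.2, 10 higher and 2 lower in NT-LE, and 2 higher and 2 lower in NT.1. Whether these cells express them from that copy alone was not measured. The median difference of the 28 was 0.26 in NT.2, 0.27 in NT-LE and 0.058 in NT.1, against 0.021, 0.013 and 0.00082 over all probes tested. The genes and probes that follow were picked after their values were seen. Cdkn1c, a cell cycle inhibitor, averaged 6.66 ± 0.125 for NT.1, 8.74 ± 0.089 for NT.2 and 9.91 ± 0.22 for NT-LE, against 7.62 ± 0.055 for FT.1, 7.13 ± 0.032 for FT.2 and 7.87 ± 0.16 for FT.3 (SD, n = 3 arrays each). By limma it rose by 1.20 in NT.2 (SE 0.085, adjusted p = 2.17e-08) and by 2.37 in NT-LE (SE 0.085, adjusted p = 1.68e-12). In NT.1 it was lower (adjusted p = 3.81e-06), but it was above background on no array of NT.1 or of FT.2, so no size is given there. All 3 arrays of each line lay outside the 9 FT arrays. Grb10, an adaptor that restrains growth factor receptors, was with probe ILMN_2518412 at 13.91 ± 0.15 for NT.1, 14.39 ± 0.18 for NT.2 and 14.52 ± 0.062 for NT-LE, against 14.11 ± 0.068 for FT.1, 13.93 ± 0.092 for FT.2 and 13.68 ± 0.088 for FT.3 (SD, n = 3 arrays each). Its limma difference was 0.49 in NT.2 (adjusted p = 0.000323) and 0.61 in NT-LE (adjusted p = 2.6e-05). The differences of its other probe, ILMN_2546546, were 0.29 in NT.2 (adjusted p = 0.198) and 0.30 in NT-LE (adjusted p = 0.155) and did not pass. H13, a peptidase of the endoplasmic reticulum, had probes in both directions: ILMN_1212794 was 0.42 higher in NT.2 and 0.75 higher in NT-LE, and ILMN_1238747 was 0.63 lower in NT.2 and 0.51 lower in NT-LE.

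Of 8 further probes of paternally expressed genes, 3 were lower and 3 higher in NT.2, 3 lower and 1 higher in NT-LE, and 2 lower and 1 higher in NT.1. Peg10, a retrotransposon-derived gene needed in the placenta, was at 8.15 ± 0.14 for NT.1, 7.02 ± 0.125 for NT.2 and 7.01 ± 0.049 for NT-LE, against 7.80 ± 0.065 for FT.1, 7.81 ± 0.088 for FT.2 and 7.99 ± 0.17 for FT.3 (SD, n = 3 arrays each). It was above background on no array of NT.2 or NT-LE, and was at least 1.53-fold lower in NT.2 (limma, adjusted p = 6.66e-07) and at least 1.52-fold lower in NT-LE (adjusted p = 5.28e-07), while it rose by 0.28 in NT.1 (adjusted p = 0.0427). The other probes lower in NT.2 and NT-LE were ILMN_2517290 of Impact and ILMN_1225513 of Peg3, which were above background on no array of these lines and not on all FT arrays, so no size is given. Dlk1, which encodes a transmembrane protein with EGF-like repeats, had probe ILMN_2771738 at a difference of -0.31 in NT.1 (limma, adjusted p = 0.0191) and higher by 0.49 in NT.2 (adjusted p = 0.000216), and probe ILMN_1244618 higher by 0.38 in NT.2 (adjusted p = 0.0195). The FT lines differed as much with ILMN_2771738, at 9.35 for FT.1, 8.67 for FT.2 and 8.85 for FT.3, against 8.64 for NT.1 and 9.45 for NT.2. With either probe, neither NT line had all its arrays below or all above the FT arrays. Rtl1, another retrotransposon-derived gene of the placenta, was higher by 0.46 in NT.2 (adjusted p = 0.00179) and by 0.36 in NT-LE (adjusted p = 0.0068), with few FT arrays above background. Igf2 fell by 0.60 in NT.1 (limma, adjusted p = 0.0381), and its differences of -0.42 in NT.2 (adjusted p = 0.0878) and 0.18 in NT-LE (adjusted p = 0.45) did not pass. Inpp5f, whose copies differ by transcript and which was not assigned to either parent, was 0.60 lower in NT.2 and 0.64 lower in NT-LE with probe ILMN_2785512, and all arrays of both lines lay below the FT arrays. Its dim probe ILMN_2560153 differed by 0.072 in NT.2 (limma, adjusted p = 0.536) and by -0.072 in NT-LE (adjusted p = 0.475) and did not pass.

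Besides imprinted genes, NT.2 and NT-LE shared 6 lost probes, which are named here after their values were seen so that each is accounted for. St14, which encodes the membrane protease matriptase, read 9.45, 9.05 and 8.88 in NT.1, 6.91, 6.95 and 6.89 in NT.2 and 8.14, 8.04 and 7.90 in NT-LE, against 9.81 to 10.28 over the 9 FT arrays. ILMN_1231270, without a gene, had means at background in NT.2 and NT-LE. The remaining 4 were 1700123O20Rik, the aspartic protease gene Ctse, Supt16, a subunit of the histone chaperone FACT, and Dlgap5, a protein of the mitotic spindle. Dlgap5 had the smallest drop of this group, with 8.16, 8.13 and 8.10 in NT.2 and 7.92, 7.98 and 7.94 in NT-LE against 9.06 to 9.41 over FT arrays. Further probes of 1700123O20Rik, Supt16 and Dlgap5 did not follow, while that of St14 did. Their differences from the lowest FT mean in NT.2 and NT-LE were -0.17 and -0.095 for 1700123O20Rik and 0.42 and 0.34 for Supt16. For Dlgap5 they were 0.11 and 0.052, and for St14 -1.93 and -1.44.

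A few probes were lost in NT.1. Krt19, a keratin of simple epithelia, was lost in all NT lines, with 9.24, 8.20 and 8.36 in NT.1, 7.38, 7.28 and 6.80 in NT.2 and 8.63, 8.53 and 8.30 in NT-LE, against 10.21, 10.38 and 10.76 in FT.1, 9.70, 10.10 and 10.14 in FT.2 and 9.86, 9.95 and 9.42 in FT.3. It was 2.74-fold lower for NT.1, 7.49-fold lower for NT.2 and 2.97-fold lower for NT-LE, and NT.1 replicate 1 lay just below the lowest FT array. With the authors' processed values its difference from the lowest FT mean was -0.86 in NT.1 and -0.96 in NT-LE, and without replicate 2 it was -0.84 in NT.1, so that the loss in these lines no longer met the rule. ILMN_2756023, without a gene, was 3.66-fold lower for NT.1, 7.05-fold lower for NT.2 and 8.23-fold lower for NT-LE.

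Bag3, a co-chaperone of the heat shock protein Hsp70, was lost in NT.1 alone. It read 8.76, 7.89 and 7.75 in NT.1, 12.55, 12.41 and 12.39 in NT.2 and 12.45, 12.40 and 12.43 in NT-LE, against 12.66, 12.53 and 12.66 in FT.1, 11.82, 12.08 and 12.06 in FT.2 and 12.66, 12.80 and 12.73 in FT.3. NT.1 was 19.9-fold below the FT mean, while NT.2 and NT-LE lay inside the FT range. Akr1b10, an aldo-keto reductase, read 8.11, 7.97 and 7.78 in NT.1, 10.43, 10.60 and 10.53 in NT.2 and 9.94, 10.16 and 9.998 in NT-LE, against 11.20 to 11.51 over the FT arrays. NT.2 was also below every FT array but by less than the rule required, as was NT-LE with median scaling, at -0.92 from the lowest FT mean.

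Stmn2, a microtubule-destabilizing protein of neurons, was lost in NT.1 and NT.2. It read 7.44, 7.30 and 7.54 in NT.1, 8.19, 8.25 and 8.17 in NT.2 and 10.12, 10.22 and 9.998 in NT-LE, against 9.82 to 10.67 over the FT arrays, so NT-LE overlapped the FT lines. Nmral1, a redox-sensing protein, was 6.53-fold lower in NT.1 and at least 12.7-fold lower in NT.2. Its NT-LE arrays, at 9.63, 9.79 and 9.55, also lay below every FT array. Their mean was 0.61 below the lowest FT mean, which is less than the rule required. The FT lines of Nmral1 differed among themselves, with means of 11.58 for FT.1, 10.27 for FT.2 and 10.90 for FT.3.

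The largest set was the 34 probes lost in NT.2 alone. In NT.2 their median difference from the FT mean was -1.60, in NT.1 it was -0.013 and in NT-LE 0.041. Unlike the imprinted genes, most kept a detectable signal: 28 of 34 were above background on all 3 NT.2 arrays and 4 on none. The brightest was ILMN_1214408, which has no gene in the annotation, with 15.00, 14.97 and 14.98 in NT.1, 10.29, 10.49 and 10.47 in NT.2 and 15.20, 15.23 and 15.23 in NT-LE, against 14.97 to 15.09 over the FT arrays. It was 24-fold lower in NT.2.

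The 3 genes with the next largest drops were Adamts9, Polr1b and Tomm22. Adamts9, a secreted metalloprotease, read 11.13, 10.94 and 11.01 in NT.1, 7.23, 7.20 and 7.45 in NT.2 and 10.58, 10.63 and 10.65 in NT-LE, against 10.14 to 10.70 over the FT arrays. It was 9.21-fold lower in NT.2. Polr1b, the second largest subunit of RNA polymerase I, read 7.0, 6.91 and 7.20 in NT.2 and was at least 7.89-fold lower, with NT.1, NT-LE and FT lines all between 9.89 and 10.46. Tomm22, a receptor for protein import into mitochondria, was 7.66-fold lower, with 8.47, 8.39 and 8.85 in NT.2 against 11.40 to 11.63 over the FT arrays.

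The set lost in NT.2 holds 2 genes of the other lists. Krt18, the keratin partner of Krt8 and a marker of trophoblast and other epithelia, read 12.86, 12.63 and 12.38 in NT.1, 10.88, 10.55 and 10.32 in NT.2 and 12.38, 12.44 and 12.16 in NT-LE, against 12.03 to 12.35 over the FT arrays. Krt8 itself was not a member, with line means of 13.97 for NT.1, 12.93 for NT.2 and 13.58 for NT-LE against 13.71, 13.69 and 13.74 for FT.1, FT.2 and FT.3. Of 10 trophoblast markers on the array, 5 were above background on all arrays of every line, and Elf5, Hand1 and Esx1 on none. The sum of their log2 levels was 87.5 for NT.1, 83.8 for NT.2 and 87.8 for NT-LE against 85.6 to 87.7 in FT lines, and without Krt18, which the rule chose, it was 74.8, 73.2 and 75.4 against 73.4 to 75.4. The part of other cell types in these differences was not tested. Psmb8, a subunit of the immunoproteasome encoded in the major histocompatibility complex, read 8.79, 9.06 and 9.04 in NT.2, against 10.33 to 10.82 over the FT arrays, and NT.1 and NT-LE, at 9.12 to 10.21, lay between them.

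The 28 other probes of this set, named after their values were seen, dropped by between 1.02 and 2.88. They include the protease inhibitor gene Slpi, with 6.57, 6.65 and 6.63 in NT.2 against 9.01 to 9.58 over the FT arrays, and Polr1a, the largest subunit of RNA polymerase I, with 7.14, 7.23 and 7.10 against 9.08 to 9.72. Sall4, a zinc finger factor of pluripotent cells, read 10.67, 10.40 and 10.61 in NT.2 against 11.98 to 12.53, and L1td1, an RNA-binding protein of pluripotent cells, read 10.90, 10.88 and 11.19 against 12.16 to 12.68. Irgm1, Irgm2 and Gbp2, which encode GTPases of cell-autonomous immunity, and the class I histocompatibility gene H2-Q5 had NT.2 means between 8.12 and 9.96. Others were Zfp365, Tesk1, Stard7, Rmdn3, Zfp277, Atp10d, the stress response factor Atf4, Tmem68, Gfpt1, Uba6, Igfbp3, Ptcd3, the carbonic anhydrase Car4, Thg1l, Washc3 and 5 probes without a gene. For Atf4, NT-LE replicate 2 at 9.81 and FT.3 replicate 1 at 9.93 lay far below the other arrays of their lines, at 11.15 to 11.36, and close to NT.2 at 9.18 to 9.53.

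In NT-LE alone 14 probes were lost, with a median difference from the FT mean of -2.08 in NT-LE, 0.20 in NT.2 and 0.040 in NT.1. ILMN_2539109, without a gene, read 8.19, 8.53 and 8.61 in NT-LE, against 13.31 to 13.58 over the FT arrays, and was 32.1-fold lower. Rpl29, a protein of the large ribosomal subunit, read 12.32, 11.98 and 12.18 in NT.1, 12.28, 12.58 and 12.40 in NT.2 and 8.82, 8.24 and 8.97 in NT-LE, against 12.01 to 12.46 over the FT arrays, and was 12.5-fold lower in NT-LE. In NT.1 and NT.2 the arrays of both probes overlapped those of the FT lines.

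Lost probes of Wdr46, Ndufb10 and Pdxdc1 shared a pattern in opposite directions. Wdr46 is a nucleolar protein of ribosome biogenesis, Ndufb10 a subunit of respiratory complex I and Pdxdc1 a decarboxylase-domain protein. Other probes of Ndufb10 and Pdxdc1 did not all follow this pattern. Wdr46 probe ILMN_2656894 read 9.97, 9.97 and 9.93 in NT.1, 10.88, 10.82 and 10.91 in NT.2 and 7.18, 7.20 and 7.11 in NT-LE, against 9.85 to 10.01 over the FT arrays. Ndufb10 read 10.02, 10.36 and 10.23 in NT.1, 10.82, 11.06 and 11.13 in NT.2 and 7.49, 7.89 and 7.46 in NT-LE, against 10.02 to 10.36. Pdxdc1 probe ILMN_1249297 read 10.45, 10.48 and 10.57 in NT.1, 11.23, 11.15 and 11.40 in NT.2 and 8.15, 8.47 and 8.17 in NT-LE, against 10.22 to 10.65. In each, NT-LE lay below and NT.2 above all FT arrays, and NT.1 overlapped them. In all, 5 probes lost in NT-LE had all NT.2 arrays above all FT arrays, 9 lost in NT.2 had all NT-LE arrays above them and 4 lost in NT.2 had all NT.1 arrays above them. Arrays of a line all above the FT arrays were found in 7.81% of bright probes for NT.2, 8.06% for NT-LE and 2.12% for NT.1.

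The 7 other probes of this set, named after their values were seen, dropped by between 1.19 and 2.28. They were Cxadr, a receptor and adhesion protein of tight junctions, Ube2cbp, Wdr82, Phlda3, Cmss1, Esd and Esrp1, a splicing regulator of epithelial cells. Of the 13 probes in the whole NT-LE set with a chromosome, 4 probes of 3 genes lie on chromosome 16, 3 probes of 2 genes on chromosome 17 and 3 probes of 3 genes on chromosome 9. These chromosomes hold 2.92%, 5.36% and 5.21% of bright probes. They were picked after the counts were seen, and their share was not tested. Esrp1 had the smallest drop, with 10.46, 10.56 and 10.58 in NT-LE against 11.63 to 12.01 over the FT arrays.

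Other probes of the same genes often did not follow. Of 27 further probes of 22 of the genes, all with an FT level of at least 8, 5 were at least 0.5 lower in every NT line that lost the gene's first probe and 22 were less than 0.5 lower or were higher. Those that followed were St14, with differences from the lowest FT mean of -1.93 in NT.2 and -1.44 in NT-LE, Akr1b10, Igfbp3, Rpl29 with -0.78 in NT-LE, and 1 of the Pdxdc1 probes. A second Sall4 probe, ILMN_3124235, averaged 13.19 in NT.2 against a lowest FT mean of 13.15, and a second Atf4 probe, ILMN_2642681, 13.40 in NT.2 against 13.06. The 2 other bright Polr1a probes differed by 0.095 and 0.10 in NT.2, while a dim one, ILMN_1230860, was at 6.63 in NT.2 against a lowest FT mean of 7.38. Ndufb10 probe ILMN_2900216 was 0.58 higher in NT-LE and 0.56 lower in NT.2, the reverse of the lost probe. In these genes the loss was seen with 1 probe and not with the other bright ones named. Further Pdxdc1 probes disagreed with each other. Against the lowest FT mean, ILMN_3105205 was 0.91 lower in NT-LE and 0.94 higher in NT.2, like the lost probes. ILMN_2727980 was 0.44 higher in NT-LE and 0.53 lower in NT.2, the reverse of them. The 5 genes with several lost probes were Snurf, Mest, Peg3, Wdr46 and Pdxdc1, with 12 probes.

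Some lost probes also differed among the FT lines. By limma's F-test among FT.1, FT.2 and FT.3, 8 of 72 (11.1%) differed at an adjusted p under 0.05. The share was 4.92% of bright probes and 6.01% of all probes tested. The rule used the lowest FT mean for both its floor and its drop, so the FT means also shaped the choice of probes. Nothing is therefore read from the difference between these shares. At an unadjusted p under 0.05 it was 23. The 8 were Impact, whose line means spanned 2.48 (adjusted p = 5.52e-11), Nmral1 with 1.31 (adjusted p = 6.5e-07), Car4 with 0.98 (adjusted p = 0.00818), 2 probes of Mest with 0.62 and 0.58 (adjusted p = 0.0238 and 0.0245), L1td1 with 0.36 (adjusted p = 0.0258), Bag3 with 0.74 (adjusted p = 0.027) and Ctse with 0.43 (adjusted p = 0.0386). The other 64 spanned 0.025 to 1.23 with a median of 0.19. The count was 5 without FT.1 replicate 1 or without FT.2 replicate 1, 4 without FT.1 replicate 2 or without FT.2 replicate 2, and 3 without FT.2 replicate 3.

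To read the losses in arrays that had not chosen them, the rule was applied to 2 repeats per line and the third was set aside. Over the 3 choices of the repeat set aside, 263 of 380 pairs of probe and NT line (69.2%) were again at least 1.0 below the lowest FT array. The 3 choices overlap, so the same pair can be counted in each. The arrays set aside are repeats of the same lines and were normalized together with the others, so they speak for these lines only. With replicate 3 set aside it was 87 of 94 and with replicate 2 set aside 90 of 102, but with replicate 1 set aside only 86 of 184, where the rule had taken 154 probes. Over all bright probes and NT lines, 0.419%, 1.19% and 0.513% of pairs were that low on replicates 1, 2 and 3. Repeats of a line spread more widely over the lost probes than over other bright probes in every line but NT-LE, with a root mean square SD of 0.234, 0.162 and 0.216 for NT.1, NT.2 and NT-LE and 0.0968, 0.106 and 0.276 for FT.1, FT.2 and FT.3, against 0.162, 0.125 and 0.222 in the same NT lines and 0.0855, 0.0879 and 0.233 in the same FT lines over other bright probes.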

How the data were processed

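RNA of 18 cultures, 3 for each of 6 lines, was measured on 1-colour Illumina bead arrays. The scanner table deposited by the authors holds linear intensity values for 45281 probes, without detection p-values and with no background step stated. BeadStudio and lumi are named in the submitters' processing notes, and their versions and roles are not given in the sources used here. Their second deposited table behaves as log2 values for bright probes and is compressed for dim ones, with its scale not stated by the authors, and served as an alternative.

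With limma 3.58.1 (R 4.3.3), log2 intensities of the 18 arrays were quantile-normalized, with no correction for background, so differences of dim probes are understated. A probe was above background where its log2 intensity lay more than 3 spreads over the mode of its array, the spread being taken from the values under the mode, and 17933 probes above background on all 3 arrays of a line were tested. Where a probe was above background on no array of a line, a fold is a bound, taken against the higher of that limit and the probe's own value on each array. limma (lmFit and eBayes, 18 arrays, 6 line means, Benjamini-Hochberg) gave the F-test among FT lines and the contrasts of imprinted genes outside the lost set, and was tested on simulated data. Precision is limited by 3 arrays per line. Genes come from the platform annotation, updated through RefSeq: 34885 probes have 1 gene, 18 several and 10378 none. Genes named in full were the 4 largest drops per set of NT lines without overlap, members of the gene lists and genes with several lost probes, 31 probes in all. The probes and all lists were chosen with earlier results of these data known, and the parental copies of imprinted genes were assigned from general knowledge after the values had been seen. The other lists (epiblast stem cell and naive stem cell markers, endoderm, mesoderm, neuroectoderm, fibroblast, cumulus, germline, methylation, glutathione transferase, KRAB zinc finger, FGF and nodal, Wnt, adhesion and protocadherin genes) held 0 lost probes. Of these lists, the naive stem cell and cumulus lists had 0 bright probes, so the rule could take none from them. The others had between 1 and 21 bright probes, and 0.884% of all bright probes were lost. Nothing is therefore read from these counts of 0. Counts were made in Python 3.11.15.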

Additional observations from a re-analysis of the deposited data

Results flagged for a closer look

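In 16 probes, all arrays of the NT line that lost the probe lay below all FT arrays while all arrays of another NT line lay above them. These opposite moves were not tested. Over all bright probes, all arrays lay above all FT arrays in 2.12% for NT.1, 7.81% for NT.2 and 8.06% for NT-LE. Given as the second line's difference from the FT mean in log2 units, NT.2 was above in 5 probes lost in NT-LE, which were Wdr46 (0.92 and 0.88 for its 2 probes), Ndufb10 (0.83) and Pdxdc1 (0.85 and 0.84). NT-LE was above in 9 probes lost in NT.2, which were Slpi (1.26), Tesk1 (0.83), Tmem68 (0.71), Zfp277 (0.60), Sall4 (0.58), ILMN_2554698 (0.58), H2-Q5 (0.43), ILMN_1214408 (0.22) and Rmdn3 (0.12). NT.1 was above in 4 probes lost in NT.2, which were Slpi (1.11), Adamts9 (0.53), Krt18 (0.38) and Rmdn3 (0.089).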

How the results depend on the processing

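The count of 72 lost probes was 60 with the authors' processed values, 55 with median scaling and 71 with normexp correction, of which 60, 55 and 68 were among the 72. It was 112 with a floor of 8 and 46 with a floor of 10, 148 without the line FT.3 and 38 without the line NT.2. The count for NT.1 was 11 with a floor of 8, 11 with a drop of 0.8 and 14 without the line FT.3. For NT.2 it was 35 with a floor of 10 and 34 with a drop of 1.5, and for NT-LE 23 with a floor of 10 and 99 without the line FT.3. Leaving out single arrays or 1 replicate number gave 69 to 154 in all, 6 to 11 in NT.1, 49 to 60 in NT.2 and 35 to 113 in NT-LE, with the highest values without replicate 1. Of the 51 differences of the named probes, 49 were at least 1.0 below the lowest FT mean with the authors' values, 50 with median scaling, 50 without replicate 2 and 51 in the 4 other settings run, and with the authors' values 45 moved by more than the spread between repeats. The F-test among FT lines called 5 with median scaling, and 3 to 11 leaving out arrays. For imprinted genes outside the lost set, median scaling gave 2 lower and 13 higher in NT.1 and 5 lower and 28 higher in NT-LE, and 6 line means gave 0 for each line and direction. Leaving out arrays gave 3 to 5 lower and 4 to 9 higher in NT.1, 5 to 10 and 13 to 20 in NT.2, and 6 to 11 and 14 to 19 in NT-LE. The share of pairs read again in the set-aside repeat was 79.4% with the authors' values. The cause of these changes was not tested. In how they deviated, array pairs that shared a replicate number had a median r of -0.016, against -0.0046 for other pairs. The r of such pairs ran between -0.69 and 0.59, so some moved together and others in opposite directions. Of the 18 arrays, 8 correlated best with their own number. With replicate number as a block, 7 probes differed among FT lines, and the imprinted counts were 4 lower and 8 higher in NT.1, 7 and 18 in NT.2, and 9 and 16 in NT-LE. Signal over background limits the size of the deepest losses.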

Other observations

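Sex-linked genes differed between the lines beside the lost probes. The brightest Xist probe averaged 10.99 for NT.1, 11.17 for NT.2 and 11.16 for NT-LE, against 6.49 for FT.1, 6.49 for FT.2 and 10.94 for FT.3. Eif2s3y, a gene of the Y chromosome, averaged 6.54 for NT.1, 6.52 for NT.2 and 6.57 for NT-LE, against 10.67 for FT.1, 10.38 for FT.2 and 6.62 for FT.3. FT.3 was thus like the NT lines in both, and the part of sex in the comparison of origins was not tested.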
